A study of Mus musculus with 24 samples.

Results

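The comparison of 3 mouse hearts given doxorubicin with hesperitin (DOXH) against 3 given doxorubicin alone (DOX), 16 h after treatment, was taken from the expected-count table of that time by its labelled columns. These 6 samples are part of 12 in the 16 h table and of 24 in the series, and the comparison covers all 10393 genes of the table. All hearts came from wild-type (WT) mice. DOX mice received doxorubicin at 25 mg/kg, and DOXH mice received that dose with hesperitin at 10 mg/kg per day. Vehicle hearts (V) and hearts given hesperitin alone at the same daily dose (H), 3 of each, served as reference levels and shared the estimate of the spread. The labels give 1 batch for all samples and do not say how many animals stand behind a sample, their age, or whether a sample is a whole heart, and p-values therefore speak of the spread among these samples, which may be technical.

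Doxorubicin is an anthracycline that traps topoisomerase II on broken DNA, enters the redox chemistry of mitochondria and can injure heart muscle, a tissue that lives mainly on fatty acid oxidation. Among the transcripts known to answer it in heart are targets of p53, the transcription factor of the DNA damage response, and genes induced by interferon. Hesperitin, usually spelled hesperetin, is a flavanone of citrus fruit. The series title names CISD2, which carries an iron-sulfur cluster and sits in membranes of the endoplasmic reticulum and mitochondria, as a protective target.

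The 3 DOXH libraries lay far apart, and values below are therefore given for DOXH 1, DOXH 2 and DOXH 3 in that order. The libraries are called by their labels, and whether the labels of the DOXH libraries are right was not tested; every DOXH value rests on them. Levels are in CPM, counts scaled to library size, with TMM factors that equalise most genes between libraries. Depth was 9255651 to 10591384 counts in the 6 libraries, 10337722 to 11074450 in V and 17664060 to 19869050 in H. On the first principal component of log2 CPM, with 60.8% of the variance, the DOXH libraries scored 8.28, 35.1 and -17.7, while DOX scored 29.4 to 42.2, V -20.8 to -18.04 and H -27.3 to -16.4. DOXH 2 thus lay within the range of DOX and DOXH 3 just outside that of V, with DOXH 1 between them. The highest correlation of log2 CPM with any DOX library was 0.977, 0.987 and 0.948, and with any V library 0.975, 0.943 and 0.990. The counts of genes that differed at least 2-fold from the DOX mean were 160, 85 and 716, against 614 to 747 in the V libraries. The mitochondrially encoded mRNAs took 34.9% to 38.7% of the counts in these 6 libraries.

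**Figure D1:**
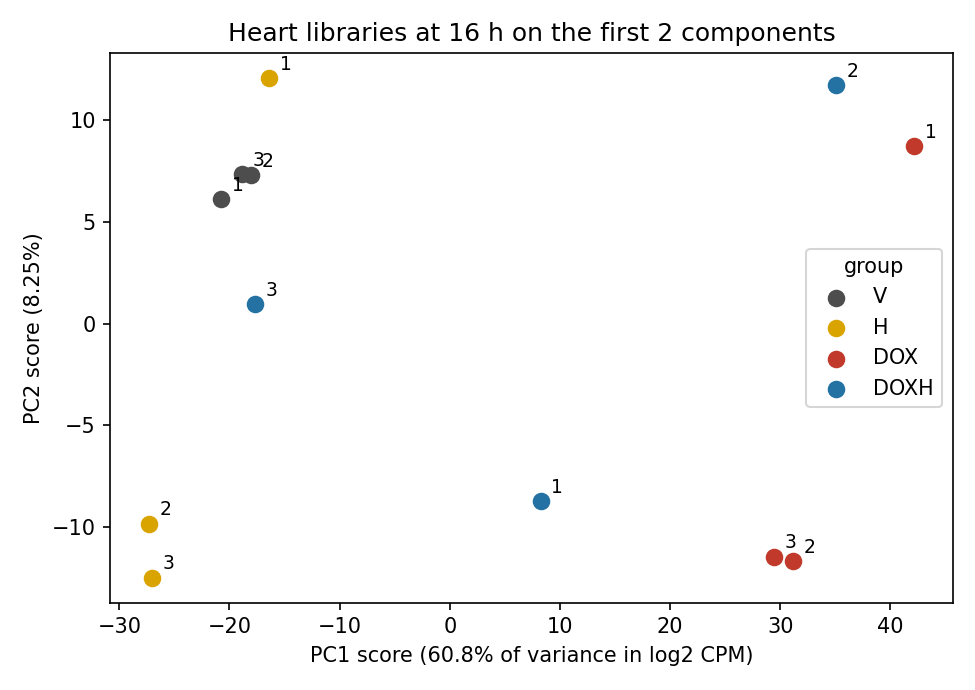
Scores of the 12 heart libraries at 16 h on the first 2 principal components of log2 CPM, with points labelled by replicate number and coloured by group. The DOXH libraries are spread from 35.1 to -17.7 on the first component, across the gap between DOX (29.4 to 42.2) and V (-20.8 to -18.04).

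The same order appeared on genes chosen without the DOXH libraries. A set of 617 genes differed at least 2-fold between the means of V and DOX without overlap, 308 higher and 309 lower in DOX. Each DOXH library was placed on a scale on which the V mean is 0 and the DOX mean is 1. The median position over these genes was 0.579 in DOXH 1, with a quartile range of 0.430 to 0.721. In DOXH 2 it was 0.981 (0.803 to 1.15), and in DOXH 3 it was 0.038 (-0.082 to 0.175). In the H libraries the medians ran from -0.038 to 0.073. The genes higher in DOX and those lower in DOX gave like positions, at 0.627 and 0.515 in DOXH 1, 0.955 and 1.00 in DOXH 2, and 0.052 and 0.024 in DOXH 3. The V and DOX means are fixed by the scale, so these positions describe the DOXH and H libraries only.

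**Figure D2:**
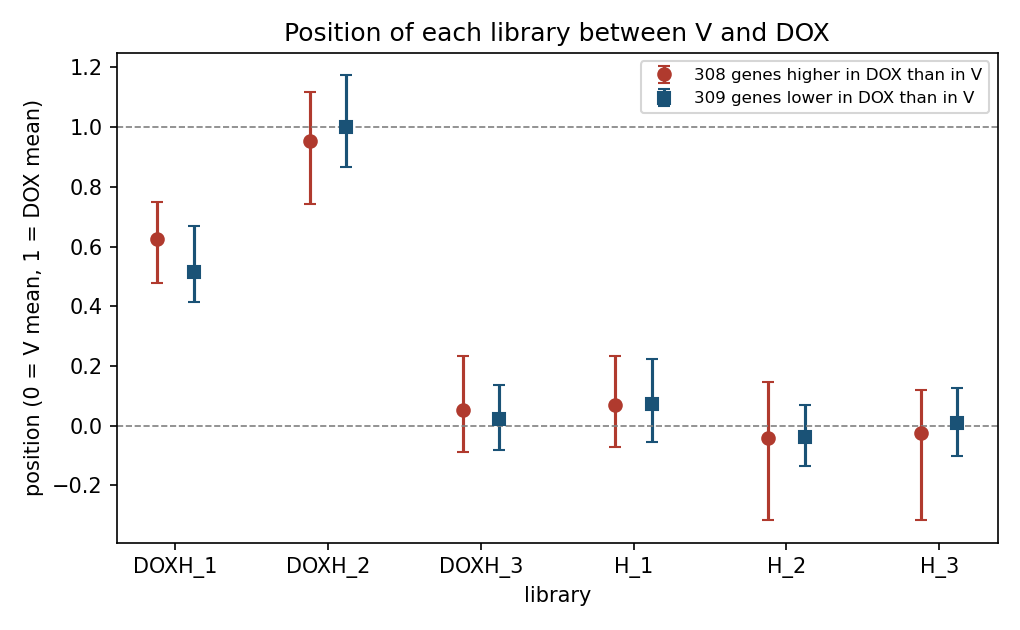
Median position (points) and quartiles (bars) of each DOXH and H library between the V mean (0) and the DOX mean (1), for 308 genes higher and 309 genes lower in DOX than in V. DOXH 2 sits near 1, DOXH 3 near 0 with the H libraries, and DOXH 1 between them at 0.627 and 0.515.

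No single gene passed the test of DOXH against DOX. edgeR's quasi-likelihood test called 0 of 10393 genes (0%) at a Benjamini-Hochberg adjusted p under 0.05, and 1958 genes had an unadjusted p under 0.05, of which 1156 were higher and 802 lower in DOXH. DESeq2 called 390 genes and limma voom called 0, while voom with a quality weight for each library called 1329. With DOXH replicate 2 left out, edgeR called 964 genes higher (9.28%) and 590 lower (5.68%), and with any of the other 5 libraries left out it called 0. All 3 DOXH libraries lay above all 3 DOX libraries in 1053 genes (10.1%) and below them in 906 genes (8.72%). Those last counts depended on the scaling: with library totals alone, an alternative chosen after seeing the data, they were 261 (2.51%) and 2571 (24.7%), and the median log2 fold change of all genes was -0.17 in place of -0.01. For genes with a mean of at least 100 CPM, of which there were 1100, 35.1% lay above and 2.45% below with TMM factors, and 10.0% and 13.2% with totals alone. Counts of non-overlapping list members below are read against these shares. Genes are named below by a rule on p and on spread, and a change is given as log2 fold change of DOXH against DOX ± SE from the edgeR fit of 12 libraries.

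The smallest p-values belonged to genes whose 3 DOXH libraries all lay on the same side of DOX. H2aw, a histone H2A gene at chr11:58954685-58956830 (GRCm38), read 21.5, 29.9 and 21.03 CPM in DOX and 12.1, 14.1 and 10.7 CPM in DOXH (-0.97 ± 0.16, adjusted p = 0.13). Its DOXH libraries lay below all DOX libraries and somewhat above V, at 8.97 to 10.2 CPM. Asb11 read 91.6, 84.1 and 90.1 CPM in DOX and 125, 115 and 121 CPM in DOXH (0.44 ± 0.07, adjusted p = 0.13); it encodes a substrate adaptor of a cullin ubiquitin ligase and lies at chrX:164436994-164459170. Here the DOXH libraries exceeded every DOX library and reached or passed the V libraries, at 106 to 118 CPM. Coq9, at chr8:94838321-94854895, encodes a lipid-binding protein needed to make coenzyme Q, the electron carrier of the respiratory chain. It read 185, 195 and 194 CPM in DOX, 271, 234 and 293 CPM in DOXH and 287 to 305 CPM in V (0.48 ± 0.08, adjusted p = 0.13). Tmem117 read 3.56, 3.24 and 4.03 CPM in DOX and 8.99, 5.46 and 9.75 CPM in DOXH (1.16 ± 0.20, adjusted p = 0.13); it encodes a membrane protein and lies at chr15:94629232-95096098. For both genes DOXH 2 was the lowest DOXH library and still above all of DOX.

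In transcripts of the respiratory chain the 3 DOXH libraries read alike. All 37 nuclear-encoded subunits of complex I, the NADH dehydrogenase that starts the chain, read higher in every DOXH library than in every DOX library, beside 10.1% of all genes. The median difference from the DOX mean over these subunits was 0.25, 0.23 and 0.20 on the log2 scale in the 3 DOXH libraries and 0.21 in V. The median fold change of the list was 0.22, against -0.01 over all genes. Over the 1100 strongly expressed genes the median was 0.15. With library totals alone the complex I median was 0.07, still above the -0.17 of all genes, and 12 of 37 subunits did not overlap, beside 2.51% of all genes and 10.0% of the strongly expressed ones. Under the adjusted test 0 of 37 passed, and 13 of 37 passed as higher without DOXH replicate 2, where 9.28% of all genes did.

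Ndufa8 read 137, 134 and 130.1 CPM in DOX and 174, 162 and 185 CPM in DOXH (0.38 ± 0.07, adjusted p = 0.13). Ndufb10 read 215, 199 and 191 CPM in DOX and 265, 256 and 329.5 CPM in DOXH (0.49 ± 0.10, adjusted p = 0.13). Both encode accessory subunits of complex I, and in both DOXH 3 was the highest and DOXH 2 the lowest DOXH library. Ndufs4, a subunit whose loss causes mitochondrial disease in people and mice, read 118, 118 and 113 CPM in DOX and 148, 140.3 and 143 CPM in DOXH (0.31 ± 0.07, adjusted p = 0.13). DOXH 1 and DOXH 3 lay within the V range of 142 to 149 CPM and DOXH 2 just under it. For Ndufa8 and Ndufb10 the V libraries read 189 to 203 and 308 to 349 CPM, above DOXH 1 and DOXH 2.

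Complexes II to V, which pass electrons to oxygen and make ATP, behaved like complex I: 38 of 42 nuclear-encoded members lay above DOX in all DOXH libraries (35.1% of strongly expressed genes did), with library medians of 0.20, 0.22 and 0.24, beside 0.22 in V. Cyc1, which encodes cytochrome c1 of complex III, read 444, 438 and 416 CPM in DOX and 544, 514 and 520.3 CPM in DOXH (0.28 ± 0.06, adjusted p = 0.13). Cox5a, a subunit of cytochrome oxidase, read 461, 427 and 427 CPM in DOX and 532, 531 and 540.3 CPM in DOXH (0.29 ± 0.06, adjusted p = 0.13). In both genes the DOXH libraries lay within a narrow range above DOX. Of 13 mRNAs encoded by mitochondrial DNA, 11 read higher and 1 lower without overlap, with medians of 0.26, 0.15 and 0.28. mt-Nd3 read 4744, 4901 and 4183 CPM in DOX and 6319.9, 7049.9 and 6183 CPM in DOXH (0.50 ± 0.11, adjusted p = 0.13). mt-Co3 read 2069, 2360.0 and 2368 CPM in DOX and 2868, 3823 and 2994 CPM in DOXH (0.51 ± 0.13, adjusted p = 0.131), with DOXH 2 the highest. With hesperitin alone both genes read below every V library. For mt-Nd3 H read 3412 to 4729 CPM and V 5746 to 6379 CPM, and for mt-Co3 H read 1925 to 2319 CPM and V 2517 to 3308 CPM. The exception below DOX was mt-Co2, at 836, 820.3 and 752 CPM in DOX and 727, 439 and 566 CPM in DOXH (-0.47 ± 0.17, adjusted p = 0.184). Nuclear copies of mitochondrial DNA can take reads from these genes, which makes their levels less certain. With totals alone 15 of 42 and 4 of 13 lay above DOX without overlap. By contrast the 58 cytosolic ribosomal protein genes had medians of 0.01, 0.11 and -0.04, with 5 higher and 2 lower without overlap; with totals alone there were 0 higher and 18 lower, so their direction depended on the scaling.

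Fuel oxidation and glycolysis genes also read higher in DOXH, with library medians further apart than those of complex I. Of 27 genes of pyruvate oxidation and the citric acid cycle, 23 lay above DOX without overlap (85.2%), with medians of 0.24, 0.16 and 0.27. The shares to read beside this and the next lists were 10.1% of all genes and 35.1% of strongly expressed ones. Mpc2 read 169, 153 and 149.8 CPM in DOX and 202, 204 and 209 CPM in DOXH (0.38 ± 0.07, adjusted p = 0.13). Mpc1 read 344, 342 and 331 CPM in DOX and 408, 412 and 408 CPM in DOXH (0.27 ± 0.06, adjusted p = 0.13). These genes encode the paired subunits of the carrier that brings pyruvate into mitochondria, and each DOXH library lay close to the V libraries. Idh3a, a subunit of isocitrate dehydrogenase, read 373, 361 and 344 CPM in DOX and 442, 442 and 542 CPM in DOXH (0.40 ± 0.09, adjusted p = 0.13), and DOXH 3 stood above the others. Of 29 genes of fatty acid uptake and oxidation 18 were higher without overlap (62.1%, medians 0.16, 0.20 and 0.31). Cpt1b, the muscle enzyme that commits long-chain fatty acids to oxidation, read 284, 297 and 283 CPM in DOX and 366, 310.4 and 514 CPM in DOXH (0.46 ± 0.15, adjusted p = 0.161). Its DOXH 2 library stood just above DOX and DOXH 3 within V (486 to 544 CPM). Of 27 glycolysis and glycogen genes 12 were higher without overlap (44.4%, near the 35.1% of strongly expressed genes), with medians of 0.28, 0.17 and 0.43. Pgm1, which links glycogen to glycolysis, read 87.9, 81.9 and 82.4 CPM in DOX and 135, 99.5 and 187 CPM in DOXH (0.74 ± 0.17, adjusted p = 0.13). With library totals alone the list medians were 0.08, 0.06 and 0.12, each above the -0.17 of all genes. The counts without overlap were then 10 higher and 0 lower of 27, 2 higher and 1 lower of 29 and 7 higher and 1 lower of 27; for fatty acid genes that is under the 10.0% of strongly expressed genes.

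Among the nuclear receptors and coactivators that control these genes, 3 of 15 lay above DOX without overlap (20%, beside 10.1% of all genes). With totals alone 2 were higher (13.3%, beside 2.51% of all genes) and 1 lower (6.67%, beside 24.7%). The medians were 0.26, 0.01 and 0.70. Esrrg read 17.96, 18.1 and 21.4 CPM in DOX and 37.9, 24.5 and 50.9 CPM in DOXH (0.98 ± 0.21, adjusted p = 0.13), and Esrrb read 13.04, 14.3 and 13.1 CPM in DOX and 23.2, 15.96 and 24.8 CPM in DOXH (0.67 ± 0.16, adjusted p = 0.13). They encode estrogen-related receptors, and ERR gamma is known as an activator of oxidative genes in the heart. In both, DOXH 2 was the lowest DOXH library and above all of DOX, and DOXH 3 was the highest, at the level of V for Esrrg (46.5 to 52.5 CPM).

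**Figure D3:**
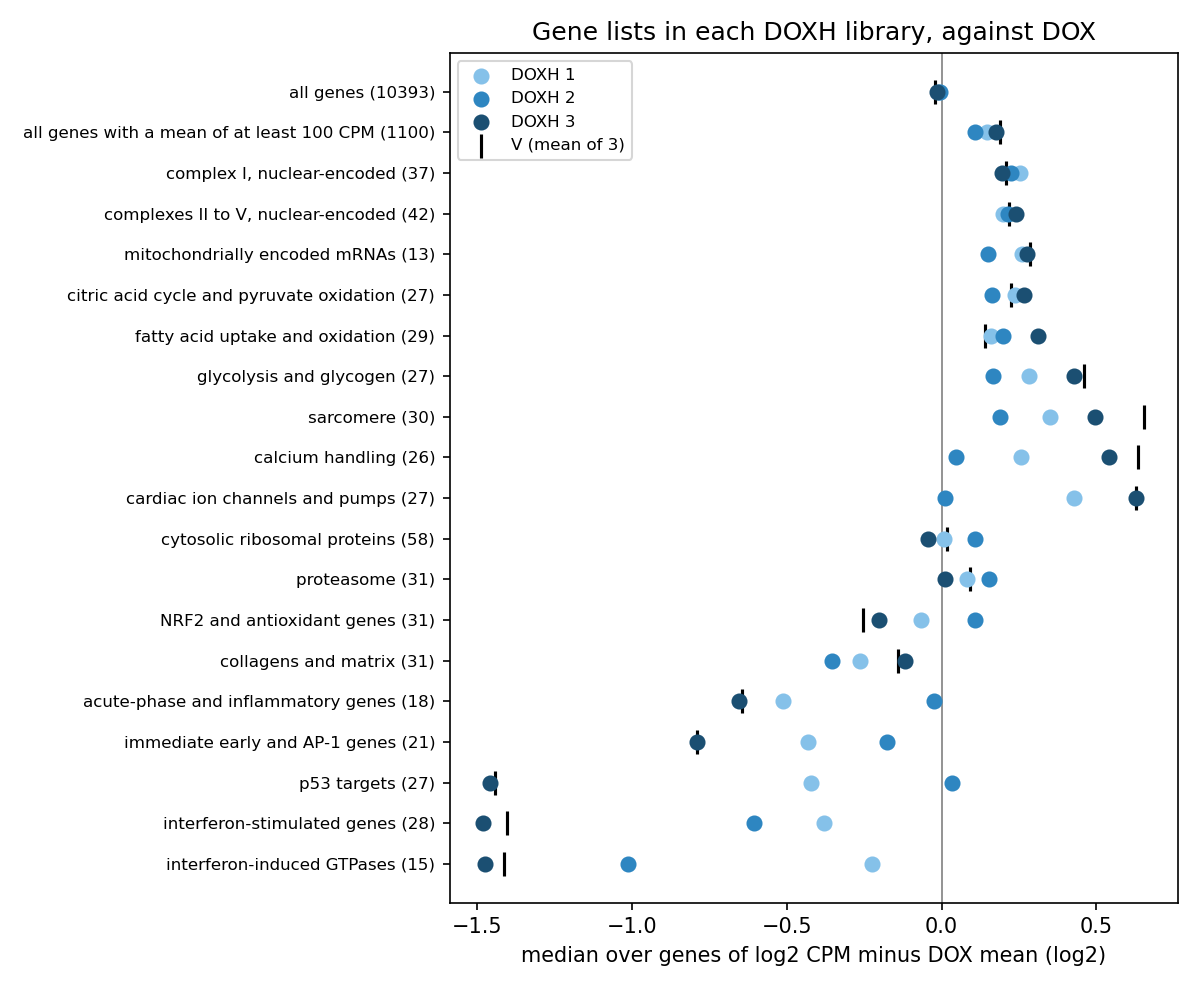
Median over the genes of each list of the log2 difference between a library and the DOX mean, for DOXH 1 to 3 (points) and the mean of V (bars), with the number of tested genes in brackets. Complex I sits at 0.25, 0.23 and 0.20 in the 3 DOXH libraries, while p53 targets spread from 0.03 in DOXH 2 to -1.46 in DOXH 3.

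Genes of the sarcomere, the contractile unit of muscle, read higher as well, but by amounts that differed between libraries. Of 30 genes 19 lay above DOX without overlap and 0 below, beside 35.1% above among strongly expressed genes, and 8 lay above with totals alone. The medians were 0.35, 0.19 and 0.49, beside 0.66 in V. Myoz2, a Z-disc protein that binds calcineurin, read 472, 479 and 423 CPM in DOX and 582, 608 and 629 CPM in DOXH (0.40 ± 0.09, adjusted p = 0.13). Myl2, the ventricular regulatory light chain, read 4856, 5470.5 and 4778 CPM in DOX and 6066, 6156 and 6768 CPM in DOXH (0.33 ± 0.07, adjusted p = 0.13). In these the DOXH libraries were close to each other and below V, at 647 to 689 and 7153 to 7828 CPM. Actc1, the cardiac alpha actin, read 2226, 2058 and 2402 CPM in DOX and 3292, 2739 and 5057 CPM in DOXH (0.73 ± 0.18, adjusted p = 0.131), where DOXH 3 stood apart from the other two. The 15 cardiomyocyte markers summed to 42987, 43014 and 40701 CPM in DOX and 52942, 48420.0 and 72587 CPM in DOXH, with 14 of 15 higher without overlap (5 of 15 with totals alone). In bulk tissue fewer cells of a type and less RNA per cell cannot be told apart.

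Excitation genes followed the library. Of 26 calcium handling genes 11 were higher and 1 lower without overlap (medians 0.26, 0.05 and 0.54), against 10.1% and 8.72% of all genes. With totals alone there were 4 higher and 5 lower, so the balance of these counts depended on the scaling. Of 27 ion channel and pump genes 4 were higher (medians 0.43, 0.01 and 0.63), or 1 higher and 1 lower with totals alone. Cacnb2, a subunit of the L-type calcium channel, read 19.7, 19.2 and 24.7 CPM in DOX and 33.96, 30.4 and 67.5 CPM in DOXH (1.05 ± 0.25, adjusted p = 0.13). Pln, phospholamban, the inhibitor of the calcium pump of the sarcoplasmic reticulum, read 2589, 2966 and 2808 CPM in DOX and 3805, 3121 and 5453 CPM in DOXH (0.57 ± 0.16, adjusted p = 0.146). Kcnip2, a potassium channel subunit, read 46.4, 63.5 and 55.1 CPM in DOX and 81.8, 69.1 and 133 CPM in DOXH (0.78 ± 0.21, adjusted p = 0.131). In all of these DOXH 3 was highest, DOXH 1 second and DOXH 2 nearest to DOX while above its range. For Kcnq1, a repolarising potassium channel, DOXH 2 at 7.50 CPM lay inside the DOX range of 5.70 to 8.13 CPM, while DOXH 1 and DOXH 3 read 15.1 and 29.98 CPM (1.36 ± 0.40, adjusted p = 0.151).

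Interferon-stimulated genes, which encode antiviral effectors and their own inducers, were, among the lists, most often below DOX in every DOXH library. Of 28 tested genes 20 lay below DOX without overlap (8.72% of all genes did) and 0 above, and all 28 had a negative fold change. The medians were -0.38, -0.61 and -1.48 in the 3 DOXH libraries and -1.40 in V, and the list median was -0.82, or -0.53 without DOXH replicate 3. Cmpk2, a mitochondrial nucleotide kinase, read 14.1, 15.6 and 17.3 CPM in DOX and 10.6, 8.998 and 6.22 CPM in DOXH (-0.86 ± 0.18, adjusted p = 0.13). Parp14, an ADP-ribosyltransferase, read 65.4, 64.9 and 74.5 CPM in DOX and 47.5, 43.8 and 23.9 CPM in DOXH (-0.83 ± 0.19, adjusted p = 0.13). Both had all DOXH libraries under DOX, with DOXH 3 lowest and within the V range of 5.59 to 7.34 and 22.5 to 25.6 CPM. Ddx58, the RNA sensor RIG-I, read 24.6, 20.5 and 26.2 CPM in DOX and 18.4, 16.4 and 13.2 CPM in DOXH (-0.57 ± 0.13, adjusted p = 0.13). These transcription factor genes read under the DOX mean in each DOXH library: the log2 differences from the DOX mean were -0.51, -0.67 and -1.75 for Stat2 (-0.89 ± 0.24, adjusted p = 0.131), -0.48, -0.41 and -1.46 for Irf9 (-0.72 ± 0.22, adjusted p = 0.152) and -0.65, -0.63 and -2.72 for Irf7 (-1.08 ± 0.37, adjusted p = 0.182). For Ifit3 they were -0.82, -0.72 and -2.38 (-1.16 ± 0.33, adjusted p = 0.147), although reads may be split between it and its near copy Ifit3b. Without DOXH replicate 2, 10 of 28 passed as lower (5.68% of all genes did). With totals alone 23 of 28 lay below DOX without overlap, beside 24.7% of all genes. Among macrophage markers 10 of 12 tested had a lower mean in DOXH, with medians of -0.18, -0.21 and -0.22. Without overlap 3 lay below DOX (25%, beside 8.72% of all genes), or 4 with totals alone (33.3%, beside 24.7%). Their sums were 505, 410.2 and 515 CPM in DOX and 426, 416 and 429.5 CPM in DOXH, which overlapped. Of 16 lymphocyte markers 0 were among the genes tested. The part of immune cells in the interferon result was not tested.

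The interferon-induced GTPases of the GBP and IRG families, which attack intracellular parasites, read lower in the same order of libraries. Their medians were -0.22, -1.01 and -1.47, with DOXH 1 nearest to DOX as in the list above. Without overlap, 3 of 15 lay below DOX (20%, beside 8.72% of all genes). With totals alone 0 were higher and 4 lower (26.7%), near the 24.7% of all genes that lay below. Irgm2 read 48.9, 48.4 and 50.6 CPM in DOX and 35.7, 32.1 and 17.6 CPM in DOXH (-0.79 ± 0.21, adjusted p = 0.131), with all DOXH libraries below DOX. Tgtp2 read 18.1, 45.7 and 51.8 CPM in DOX and 23.6, 10.3 and 10.7 CPM in DOXH (-1.37 ± 0.41, adjusted p = 0.152), where DOX 1 lay inside the range of DOXH. In the MHC class I list, which presents peptides to T cells, 4 of 19 were lower (21.1%) and 1 higher. With totals alone these counts were the same, and the share lower was under the 24.7% of all genes. Tap1, the peptide transporter, read 21.9, 27.6 and 30.3 CPM in DOX and 19.5, 18.7 and 7.05 CPM in DOXH (-0.82 ± 0.28, adjusted p = 0.183) and was lower in each DOXH library. Psme1, a proteasome activator subunit, read 52.97, 54.2 and 51.6 CPM in DOX and 62.5, 64.2 and 70.1 CPM in DOXH (0.31 ± 0.09, adjusted p = 0.136). All 4 MHC class II genes had positive fold changes, with overlap; H2-Aa read 14.9, 14.6 and 20.6 CPM in DOX and 28.8, 17.03 and 40.98 CPM in DOXH (0.79 ± 0.29, adjusted p = 0.194).

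**Figure D4:**
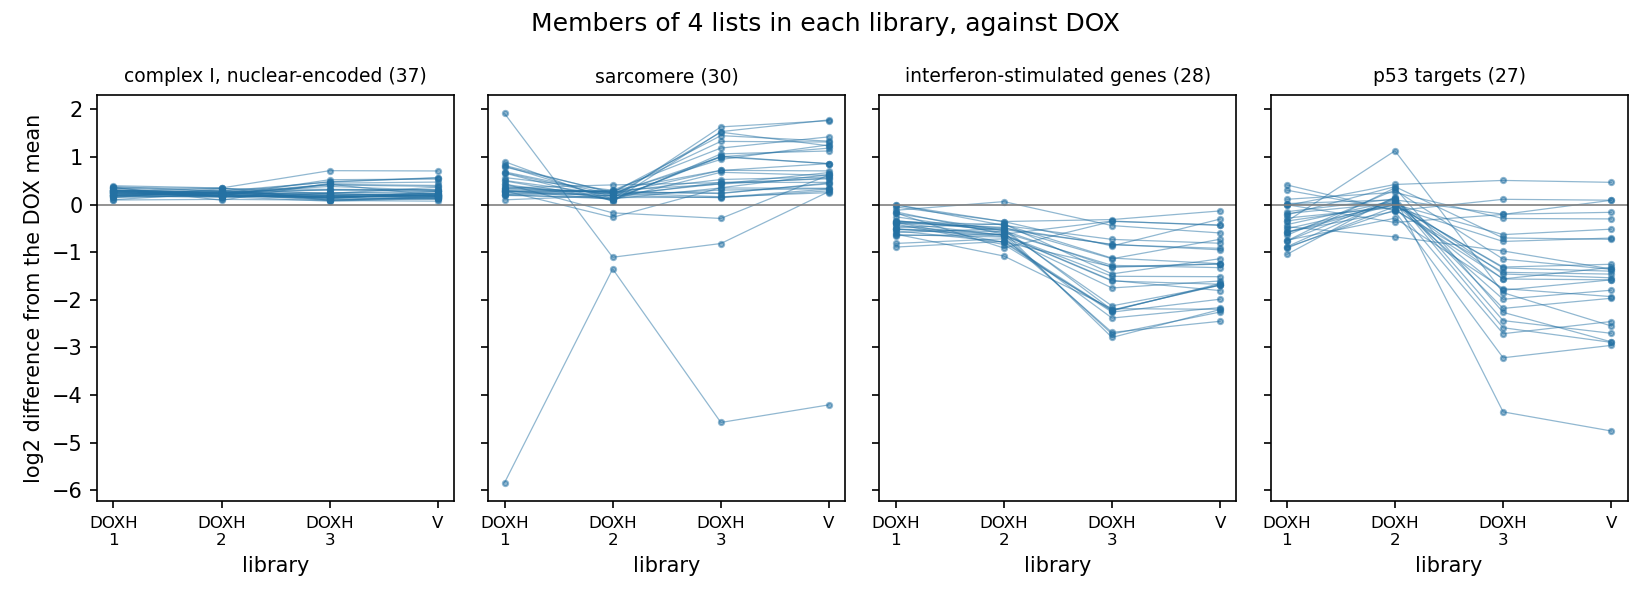
Each line is a gene, drawn as its log2 difference from the DOX mean in DOXH 1, 2 and 3 and in the mean of V, for 4 lists with the number of genes in brackets. The 37 complex I genes stay above 0 in all libraries, the interferon-stimulated genes lie mostly below 0 with DOXH 3 lowest, and the p53 targets lie near 0 in DOXH 2 and far below it in DOXH 3; the sarcomere line near -5.84 in DOXH 1 is Myl4.

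Promoter sequences of the 2 members of lowest p with a single entry in the RefSeq promoter table (GRCm38.p6, 250 bases before to 50 after the start, 5′ to 3′ on the gene's strand) are shown for complex I and for the interferon-stimulated genes, the lists with the largest shares of members above and below DOX without overlap. Capitals mark matches to the motif of the core of the interferon-stimulated response element (ISRE, AAANNGAAA), of the factor NRF1 (GCGCANGCG) or of the estrogen-related receptors (ERR, AAGGTCA), searched on both strands; no match to one motif overlaps a match to another in these sequences. Ndufa8 is from chr2:36049289-36049588 and Ndufb10 from chr17:24724374-24724673, both on the minus strand, Cmpk2 is from chr12:26468965-26469264 on the plus strand, and Ddx58 is from chr4:40239776-40240075 on the minus strand.
Ndufa8: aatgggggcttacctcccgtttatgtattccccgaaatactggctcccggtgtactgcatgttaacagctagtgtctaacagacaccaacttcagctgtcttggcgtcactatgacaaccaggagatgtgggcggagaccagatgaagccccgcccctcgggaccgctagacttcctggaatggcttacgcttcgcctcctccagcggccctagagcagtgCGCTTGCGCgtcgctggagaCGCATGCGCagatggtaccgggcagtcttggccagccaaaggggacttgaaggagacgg
Ndufb10: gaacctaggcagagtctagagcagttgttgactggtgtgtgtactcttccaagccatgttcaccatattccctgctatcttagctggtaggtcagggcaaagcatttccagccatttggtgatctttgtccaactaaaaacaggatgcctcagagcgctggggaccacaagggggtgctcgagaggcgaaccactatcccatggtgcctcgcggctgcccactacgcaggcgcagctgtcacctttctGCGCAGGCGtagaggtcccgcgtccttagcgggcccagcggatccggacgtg
Cmpk2: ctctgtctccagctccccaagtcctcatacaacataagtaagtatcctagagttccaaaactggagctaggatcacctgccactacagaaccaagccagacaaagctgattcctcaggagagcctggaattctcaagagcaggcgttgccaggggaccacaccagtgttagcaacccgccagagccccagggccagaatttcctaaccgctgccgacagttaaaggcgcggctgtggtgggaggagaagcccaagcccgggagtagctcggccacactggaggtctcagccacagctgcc
Ddx58: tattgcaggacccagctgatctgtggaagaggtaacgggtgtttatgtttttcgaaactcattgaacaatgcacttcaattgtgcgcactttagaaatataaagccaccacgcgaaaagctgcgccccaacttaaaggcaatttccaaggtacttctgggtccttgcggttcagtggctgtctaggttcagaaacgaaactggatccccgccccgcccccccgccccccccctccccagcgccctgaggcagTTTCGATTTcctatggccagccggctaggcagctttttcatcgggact
The table held promoters for 8273 tested genes, of which 9.36% had the ISRE letters in at least 1 promoter, 16.2% the NRF1 letters and 3.82% the ERR letters. Among the interferon-stimulated genes 10 of 20 with a promoter had the ISRE letters (50%), as the Ddx58 promoter does near its start. Among complex I genes 8 of 33 had the NRF1 letters (24.2%), Ndufa8 and Ndufb10 included, and 3 of 33 the ERR letters (9.09%). The ISRE letters stood in 5 of these 33 (15.2%), so their share too was above that of tested genes. Cmpk2 held none of these letters in the window.

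Targets of p53 followed the library rather than the group. The medians over 27 genes were -0.42, 0.03 and -1.46, with -1.44 in V, and 2 of 27 lay below DOX without overlap, a share under the 8.72% of all genes (9 with totals alone, where 24.7% of all genes did). The list median was -0.47, -0.85 without DOXH replicate 2 and -0.18 without DOXH replicate 3. Cdkn1a, the cell cycle inhibitor p21 at chr17:29090976-29100727, read 323, 246 and 212 CPM in DOX and 151, 327 and 53.2 CPM in DOXH (-0.56 ± 0.69, adjusted p = 0.683). DOXH 2 was above every DOX library and DOXH 3 was just above V (26.9 to 42.5 CPM). Bax, the pore-forming protein of apoptosis, read 31.1, 35.1 and 35.6 CPM in DOX and 23.7, 34.1 and 8.40 CPM in DOXH (-0.62 ± 0.35, adjusted p = 0.356). Phlda3, an inhibitor of AKT, read 32.5, 39.4 and 42.8 CPM in DOX and 25.4, 34.4 and 3.94 CPM in DOXH (-0.85 ± 0.51, adjusted p = 0.382). Apaf1, the core of the apoptosome, read 22.5, 20.9 and 21.8 CPM in DOX and 11.6, 20.03 and 7.99 CPM in DOXH (-0.72 ± 0.25, adjusted p = 0.18). In each of these DOXH 2 was within or next to the DOX range, DOXH 1 lower and DOXH 3 at the level of V. Plk3, a stress kinase, was the member of smallest p and the exception in order, at 6.02, 6.49 and 6.33 CPM in DOX and 4.50, 3.86 and 3.11 CPM in DOXH (-0.71 ± 0.17, adjusted p = 0.131). Without DOXH replicate 2, 12 of 27 passed as lower, beside 5.68% of all genes.

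The widest spread among the 3 DOXH libraries, over genes with a mean log2 CPM of at least 3 in them, belonged to Nppb, Eda2r, Klhdc7a, Dbp, Serpina3n, Socs3, Hmox1, Mt2, Phlda3 and Tuba4a; they were picked by that spread, which carries no test. Nppb, which encodes the brain natriuretic peptide at chr4:147985788-147987205, read 0.729, 1.58 and 2.30 CPM in DOX, 10.04, 0.964 and 58.3 CPM in DOXH and 82.5 to 122 CPM in V. Eda2r, a p53-induced death receptor at chrX:97333840-97377216, read 61.8, 95.9 and 78.2 CPM in DOX, 45.3, 85.2 and 3.63 CPM in DOXH and 2.30 to 3.57 CPM in V. DOXH 2 lay in the DOX range in both, and DOXH 3 came closest to V. Klhdc7a read 96.5, 104 and 101 CPM in DOX and 65.4, 91.7 and 6.95 CPM in DOXH, and the tubulin gene Tuba4a read 39.7, 64.2 and 67.03 CPM in DOX and 80.3, 37.2 and 308 CPM in DOXH. Their V libraries read 4.72 to 5.62 and 348 to 378 CPM, again near DOXH 3 and far from DOXH 2.

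Stress and acute-phase genes made up a second kind among these widest genes. Hmox1, the haem oxygenase, read 43.4, 15.1 and 10.9 CPM in DOX and 7.84, 53.3 and 5.91 CPM in DOXH (-0.05 ± 0.74, adjusted p = 0.976). Mt2, a metallothionein that binds zinc, read 209, 38.7 and 27.8 CPM in DOX and 14.3, 123 and 17.4 CPM in DOXH (-0.84 ± 0.96, adjusted p = 0.66). In both, DOX 1 and DOXH 2 stood above the other libraries, so the DOX libraries were themselves spread. Serpina3n read 191, 33.7 and 30.6 CPM in DOX and 11.3, 77.3 and 7.68 CPM in DOXH (-1.41 ± 0.88, adjusted p = 0.404). Socs3 read 44.6, 16.7 and 23.3 CPM in DOX and 9.76, 29.3 and 2.90 CPM in DOXH (-1.01 ± 0.65, adjusted p = 0.411). Both are induced by cytokines of the gp130 family, and both were high in the same 2 libraries. Of 18 acute-phase and inflammatory genes 5 lay below DOX without overlap (27.8%, beside 8.72% of all genes), with medians of -0.51, -0.02 and -0.65. With totals alone the count was also 5, but 24.7% of all genes then lay below, a share near that of the list. C4b, a complement component, read 71.2, 36.98 and 61.3 CPM in DOX and 19.5, 32.5 and 15.04 CPM in DOXH (-1.34 ± 0.35, adjusted p = 0.131). The neutrophil markers tested, 8 of 12, summed to 268, 274 and 149 CPM in DOX and 158, 159 and 64.2 CPM in DOXH, and their part in these values was not tested. The 31 antioxidant genes of the NRF2 list had medians of -0.07, 0.11 and -0.20. With totals alone 1 was higher and 4 lower without overlap (12.9% lower, beside 24.7% of all genes). With TMM factors 3 were higher (9.68%, beside 10.1% of all genes) and 1 lower (3.23%, beside 8.72%). Sod2, the superoxide dismutase of mitochondria, was among the higher ones, at 405, 395 and 376 CPM in DOX and 468, 455 and 562 CPM in DOXH (0.34 ± 0.09, adjusted p = 0.131).

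The 3 clock genes described here sorted by library, while the list medians joined genes of both directions and cannot show whether the lists did. Over 16 core clock genes, 9 with a higher and 7 with a lower mean, the medians were 0.05, 0.05 and 0.27, beside 0.36 in V. In this list 1 gene lay above DOX without overlap (6.25%, under the 10.1% of all genes). Over 11 clock output genes, 5 higher and 6 lower, they were 0.08, 0.01 and 0.04, beside 0.34 in V, also with 1 above (9.09%). Dbp, a clock-driven transcription factor at chr7:45705088-45710203, read 3.92, 5.78 and 9.12 CPM in DOX and 24.8, 4.18 and 50.7 CPM in DOXH (2.07 ± 0.65, adjusted p = 0.164). Nr1d1, the repressor REV-ERB alpha, read 20.6, 25.1 and 35.2 CPM in DOX and 50.9, 25.2 and 80.5 CPM in DOXH (0.95 ± 0.35, adjusted p = 0.193). Ciart, a repressor of the core loop, read 2.37, 1.40 and 1.73 CPM in DOX and 2.97, 1.82 and 5.60 CPM in DOXH (0.92 ± 0.33, adjusted p = 0.188). DOXH 2 lay inside the DOX range in all of these, and DOXH 3 was highest while still under V for Dbp and Ciart (74.96 to 85.2 and 12.96 to 13.2 CPM). The clock hour of each collection is not given in the sources used here, and its part in these values was not tested. Of 21 immediate early genes 2 were lower without overlap (9.52%), a share near the 8.72% of all genes. With totals alone 8 were lower (38.1%, beside 24.7% of all genes). The medians were -0.43, -0.18 and -0.79. Fos read 33.7, 18.8 and 14.8 CPM in DOX and 9.76, 15.3 and 5.08 CPM in DOXH (-1.16 ± 0.40, adjusted p = 0.182).

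**Figure D5:**
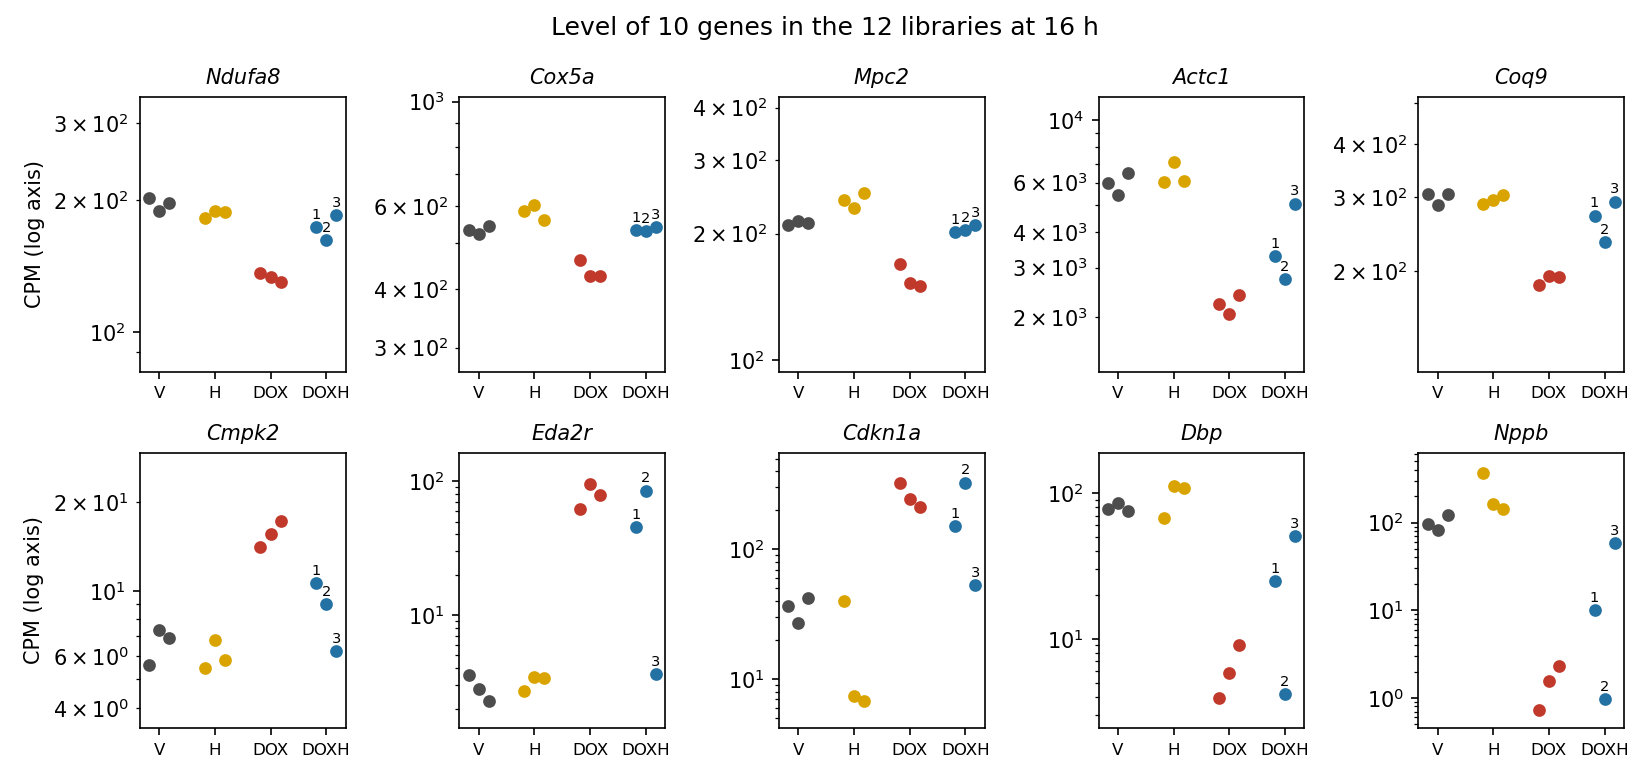
CPM on a log axis for 10 genes in the 12 libraries, 3 points per group, with the DOXH points numbered by replicate. In Ndufa8, Cox5a, Mpc2, Actc1, Coq9 and Cmpk2 all DOXH points lie on 1 side of DOX, while in Eda2r, Cdkn1a, Dbp and Nppb DOXH 2 lies with or beyond DOX and DOXH 3 toward V.

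The CISD genes differed by small amounts. Cisd1, which encodes mitoNEET of the mitochondrial outer membrane, read 92.99, 86.9 and 88.6 CPM in DOX and 103, 99.7 and 106 CPM in DOXH (0.20 ± 0.07, adjusted p = 0.186), and its groups did not overlap. Cisd2, at chr3:135406412-135423925, read 62.7, 53.4 and 54.3 CPM in DOX and 59.9, 64.7 and 73.7 CPM in DOXH (0.22 ± 0.09, adjusted p = 0.24), with DOXH 1 inside the DOX range and DOXH 3 highest. Cisd3, a relative inside mitochondria, read 20.97, 23.7 and 19.4 CPM in DOX and 26.8, 21.6 and 30.8 CPM in DOXH (0.31 ± 0.13, adjusted p = 0.243), with DOXH 2 inside the DOX range. Of 20 genes of the family and of iron-sulfur cluster assembly 8 were higher without overlap (10.1% of all genes were), with medians of 0.12, 0.16 and 0.27. Fdx1, an electron donor for cluster assembly, was among them and read 26.9, 28.4 and 24.9 CPM in DOX and 32.2, 35.03 and 35.8 CPM in DOXH (0.36 ± 0.09, adjusted p = 0.13). With library totals alone the list median was 0.05 and there were 3 higher and 2 lower without overlap. In the iron handling list 1 of 14 was lower without overlap (7.14%, under the 8.72% of all genes). With totals alone 4 were lower (28.6%, near the 24.7% of all genes). The transferrin receptor Tfrc read 8.11, 13.1 and 12.3 CPM in DOX and 14.8, 13.1 and 46.1 CPM in DOXH (1.13 ± 0.42, adjusted p = 0.193). It was highest in DOXH 3 and below V there (50.6 to 72.1 CPM). Top1, the topoisomerase that relaxes DNA through single-strand breaks, was lower in every DOXH library, at 65.6, 69.6 and 72.1 CPM in DOX and 56.3, 61.9 and 53.6 CPM in DOXH (-0.27 ± 0.08, adjusted p = 0.142).

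Protein folding genes divided as well. Herpud1, a factor of endoplasmic reticulum-associated degradation, read 138, 109.6 and 99.3 CPM in DOX and 169.7, 160.2 and 224 CPM in DOXH (0.68 ± 0.16, adjusted p = 0.13) and was above DOX in each DOXH library. Hspa5, the chaperone BiP, read 254, 245 and 276 CPM in DOX and 305, 264 and 686 CPM in DOXH (0.69 ± 0.28, adjusted p = 0.215). It was highest in DOXH 3, above V at 491 to 546 CPM, and DOXH 2 lay inside the DOX range. The 24 genes of these stress responses had medians of 0.05, -0.02 and 0.35, and the 26 heat shock genes 0.13, 0.03 and 0.20. The 31 proteasome genes had medians of 0.08, 0.15 and 0.01, with 6 higher and 0 lower without overlap; with totals alone there were 0 higher and 4 lower, so their direction depended on the scaling.

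Several matrix and fibroblast genes read lower in DOXH, beside a difference between the DOX libraries. Of 31 collagen and matrix genes 7 were below DOX without overlap (8.72% of all genes were) and 0 above (9 below with totals alone, beside 24.7% of all genes), with medians of -0.26, -0.36 and -0.12. Bgn, the matrix proteoglycan biglycan, read 203, 139 and 204 CPM in DOX and 125, 121 and 111 CPM in DOXH (-0.61 ± 0.25, adjusted p = 0.221). Fn1, fibronectin, read 56.5, 51.5 and 73.3 CPM in DOX and 39.2, 50.02 and 37.7 CPM in DOXH (-0.52 ± 0.20, adjusted p = 0.209). For Bgn, DOX 2 lay nearer to the DOXH libraries than DOX 1 and DOX 3 did. Tagln, a smooth muscle marker, read 64.00, 24.8 and 52.6 CPM in DOX and 10.1, 19.5 and 21.8 CPM in DOXH (-1.46 ± 0.40, adjusted p = 0.133) and had its highest values in DOX 1 and DOX 3. The mural list as a whole did not follow Tagln: 8 of 13 markers had a higher mean, with library medians of 0.21, -0.10 and 0.25. Without overlap 3 were higher and 1 lower (23.1% and 7.69%, beside 10.1% and 8.72% of all genes). With totals alone 1 was higher and 3 lower, and the list median was 0.03 in place of 0.18. The sums, which a few strongly expressed members can set, were 2139.9, 2199.8 and 2168 CPM in DOX and 2497, 2261 and 2591 CPM in DOXH. DOX 1 and DOX 3 also carried the atrial transcripts: Myl4, the atrial light chain, read 273, 9.64 and 195 CPM in DOX and 1.24, 31.4 and 3.22 CPM in DOXH (-3.75 ± 1.25, adjusted p = 0.176). The 6 atrial markers tested of 9 summed to 1254, 138 and 652 CPM in DOX and 156, 231 and 117 CPM in DOXH, against 201 to 236 CPM in V. Nppa, which atria express strongly, read 805, 37.7 and 301 CPM in DOX and 80.7, 109 and 30.5 CPM in DOXH (-2.38 ± 1.03, adjusted p = 0.25). The 16 fibroblast markers summed to 2866, 2359 and 2779 CPM in DOX and 1966, 2229.6 and 2118 CPM in DOXH. Of these markers 3 were lower without overlap (18.8%, beside 8.72% of all genes), or 6 with totals alone (37.5%, beside 24.7%). The part of the sampled tissue in the matrix and natriuretic values was not tested.

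Values for V stand beside these comparisons as a level only, since DOXH against DOX and V against DOX share the DOX libraries.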

How the data were processed

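Heart RNA (RNA integrity number above 8) was selected for poly(A) mRNA and read as single ends on an Illumina instrument, per the labels' protocols. The authors deposited expected counts, which are estimated read numbers per gene; the submitters' processing notes name RSEM, DESeq2 and GRCm38 (mm10). Their versions, the annotation and strandedness: not given in the sources used here. Groups came from the labels. The table of the later time was not used here.

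Expected counts were rounded to whole numbers and scaled with TMM factors, and filterByExpr removed 0 of 10393 genes. Group means were fitted by robust quasi-likelihood in edgeR 4.0.16 (R 4.3.3) on 12 libraries (8 residual degrees of freedom), with Benjamini-Hochberg adjustment over all genes and a threshold of 0.05. The SE is the absolute log2 fold change divided by the square root of F. Log2 CPM used a prior count of 2. No pair of replicates agreed within sampling noise (chi-square per degree of freedom at least 6.89). The fit was also run on simulated counts, drawn gene by gene with the same spread in all groups. They lack the shared order of the DOXH libraries, so that run cannot show how the test behaves here.

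The comparison, the 48 gene lists (47 with a tested gene, 858 of 1024 genes tested) and the naming rule were chosen with earlier results of these data known. The rule takes up to 4 genes of lowest p per list, the 10 of widest range in DOXH, the 4 of lowest p and Cisd1 to Cisd3; the text names fewer, and Cdkn1a, mt-Co2, Stat2, Irf9, Irf7 and Ifit3 were added for their known roles after their values were seen. Genes with unnamed models or shared symbols were left out. Positions come from GENCODE on GRCm38, matched by identifier, and promoters from RefSeq. Alternatives were other scalings and filters, DESeq2 1.42.0, limma 3.58.1 (voom with and without quality weights), a test against a fold of 1.5, a replicate block, the 6 libraries alone and each library left out. Depth and 3 libraries per group limit what can be called.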

Additional observations from a re-analysis of the deposited data

How the results depend on the processing

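The count of genes called between DOXH and DOX was 0 in the reported fit and stayed 0 with RLE, upper quartile or no scaling factors (the last chosen after seeing the data), without a filter, at a mean of at least 5 CPM, with voom, with voom weighted by group, against a fold of 1.5 and without the robust step. DESeq2 called 390 genes (320 higher, 70 lower) and voom with quality weights per library 1329 (758 higher, 571 lower); the weights were 2.82, 0.316 and 0.352 for DOXH 1 to 3. With only the 6 libraries 1 gene was called, as higher, and it bears a symbol shared by 2 identifiers. Leaving out each library in turn gave 0 to 1554 calls (0 to 964 higher, 0 to 590 lower), and all came without DOXH replicate 2. With the replicate block 0 genes were called, with 12 libraries or 6. Same-numbered DOX and DOXH libraries deviated from their group means with correlations of -0.415, -0.217 and 0.25. The wide spread among the 3 DOXH libraries can mask a shared part, so these values cannot decide whether the numbers pair the samples. Of 91 genes followed, 0 changed direction in any alternative. Over genes and alternatives, 182 values passed the threshold and 1637 did not; of the medians of gene sets, 863 moved by less than the spread of the 3 libraries and 67 by more. The cause was not tested. Depth and the 3 libraries per group limit calls of small changes.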

Other observations

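In 48 of 10393 genes the 3 DOXH libraries lay beyond all 9 other libraries of the 16 h table, 16 above them and 32 below. Whether that small share exceeds the share for any other 3 libraries was not tested. The genes named here were chosen after their values were seen. Ddit4, an inhibitor of mTORC1 induced by stress and glucocorticoids, read 114, 101 and 105 CPM in DOXH, 75.7 to 84.9 CPM in DOX, 50.1 to 93.8 CPM in V and 11.5 to 91.9 CPM in H (DOXH against DOX 0.40 ± 0.61, adjusted p = 0.749 in edgeR). Acadvl, the very long-chain acyl-CoA dehydrogenase, read 744, 795 and 786 CPM in DOXH, 644 to 712 CPM in DOX, 712 to 738 CPM in V and 609 to 744 CPM in H (0.18 ± 0.08, adjusted p = 0.249). Cox4i1, a cytochrome oxidase subunit, read 1029, 1072 and 1028 CPM in DOXH and at most 1026 CPM in the others (0.15 ± 0.06, adjusted p = 0.233).

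Below all other libraries were Ptma, prothymosin alpha, at 114, 111 and 116 CPM in DOXH and 119 to 132 CPM in V (-0.26 ± 0.09, adjusted p = 0.186), and Cfl1, the actin-severing protein cofilin, at 71.6, 74.7 and 71.1 CPM in DOXH and 75.98 to 77.2 CPM in V (-0.22 ± 0.08, adjusted p = 0.193). Their DOX levels were 129.6 to 142 and 79.5 to 92.7 CPM. None of them passed the adjusted test.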
